A study of Mus musculus with 39 samples.

Results

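Insulin-like growth factor 1 (Igf1), its receptor (Igf1r) and 6 IGF binding proteins (Igfbp2, Igfbp3, Igfbp4, Igfbp5, Igfbp6 and Igfbp7) were followed through a dose and time course of C1q in mouse lung fibroblasts. The genes were picked by symbol, 8 of the 30012 names in the count table, and all 8 were among the 14419 genes with enough counts to be tested. Lungs of wild-type C57BL/6 mice were the source, and cells bearing CD45, CD31, EpCAM, CD146 or Ter119 were removed magnetically before those that adhered were grown in serum and passaged into wells. They then went without serum for 24 h and received C1q, the recognition molecule of the classical complement pathway, at 1, 10 or 100 µg/ml. RNA was taken after 2, 24, 48 or 72 h, and untreated cells were taken at 0 h. Each of these 13 groups held 3 libraries, and genotype, strain, tissue and culture were the same in all of them. Nothing in the labels says that the 3 libraries of a group are separate cultures or mice, so a p-value here reflects only how far libraries differ, which may be technical. Untreated cells at 24 to 72 h and cells given buffer alone were not analysed here. Time in culture, the length of serum withdrawal and C1q therefore cannot be told apart in comparisons with untreated cells. Doses at the same time share time in culture and serum withdrawal and differ in the amount of C1q, and whether they also differ in the amount of its buffer is not given in the labels.

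IGF1 is a secreted peptide that signals through the receptor tyrosine kinase IGF1R to promote growth and survival. Outside cells most IGF is held by binding proteins, which lengthen its life and limit or deliver it to the receptor, and which proteases such as pappalysin can cleave to set IGF free. In the lung, fibroblasts and macrophages are known sources of IGF1, and fibroblasts secrete several of the binding proteins.

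Library totals ran from 1806106 to 3012518 counts, and levels are given as CPM, counts scaled to a common library size, after TMM scaling. Differences are on the log2 scale, with a standard error from 1 fit over all 39 libraries. A gene was called where edgeR's quasi-likelihood test gave a Benjamini-Hochberg adjusted p under 0.05 over all tested genes, and adjusted p-values are of that kind unless another tool is named. The fibroblast markers Col1a1, Col1a2, Col3a1 and Pdgfra stood at means of 1315, 1508, 1819 and 557 CPM in untreated cells. The rest of the 10 fibroblast markers used below were Vim at 1822, Dcn at 348, Pdgfrb at 116, Fbln1 at 66.9, Thy1 at 30.8 and Lum at 20.9 CPM. Among the 24 h libraries at 1 µg/ml, the third differed from its group. Its counts gave a chi-square per degree of freedom of 8.02 and 8.48 against the other two, and the other 37 pairs of replicates gave at most 4.34. Without it, the calls among the 8 genes between 100 and 1 µg/ml at 24 h were the same, as given below.

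Most of the 8 genes rose with time after C1q, and at 100 µg/ml several of them rose less than at the lower doses. At 2 h, 0 of the 8 were called against untreated cells at 1, 10 or 100 µg/ml, where 6.15%, 12.7% and 5.16% of all tested genes were called. At an unadjusted p under 0.05, 3, 1 and 1 of the 8 passed at those doses, and DESeq2 called 0 at each. At 24 h, 5 of the 8 were higher than in untreated cells and 0 lower at 1 µg/ml, and likewise at 10 µg/ml, where 10.9% and 12.5% of all genes were called higher and 14.3% and 15.3% lower. The 5 were Igf1, Igfbp4, Igfbp5, Igfbp6 and Igfbp7 at both doses. At 100 µg/ml and 24 h, 4 were higher (Igfbp4, Igfbp5, Igfbp6 and Igfbp7) and Igfbp3 was lower, with 16.8% of all genes called higher and 19.9% lower.

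At 48 h, 5 of the 8 were called at both 1 and 10 µg/ml, where 33.1% and 34.5% of all genes were called in either direction, and all 5 (Igf1, Igfbp3, Igfbp4, Igfbp5 and Igfbp7) were higher than in untreated cells. At 100 µg/ml, 6 of the 8 were higher, with Igf1r and Igfbp6 in place of Igfbp3 (19.1% of all genes higher, 20.9% lower). At 72 h, 6 were higher at 1 µg/ml and at 10 µg/ml (Igf1, Igfbp2, Igfbp3, Igfbp4, Igfbp5 and Igfbp7) and Igfbp6 was lower, where 18.1% and 19.3% of all genes were called higher and 20.1% and 20.6% lower. At 100 µg/ml and 72 h, 6 were higher, with Igfbp6 among them and Igfbp2 not (22.5% of all genes higher, 23.3% lower). The median log2 difference of the 8 from untreated cells at 72 h was 1.31, 1.22 and 0.60 at 1, 10 and 100 µg/ml, and that of all tested genes was 0.02, 0.02 and 0.05.

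**Figure D1:**
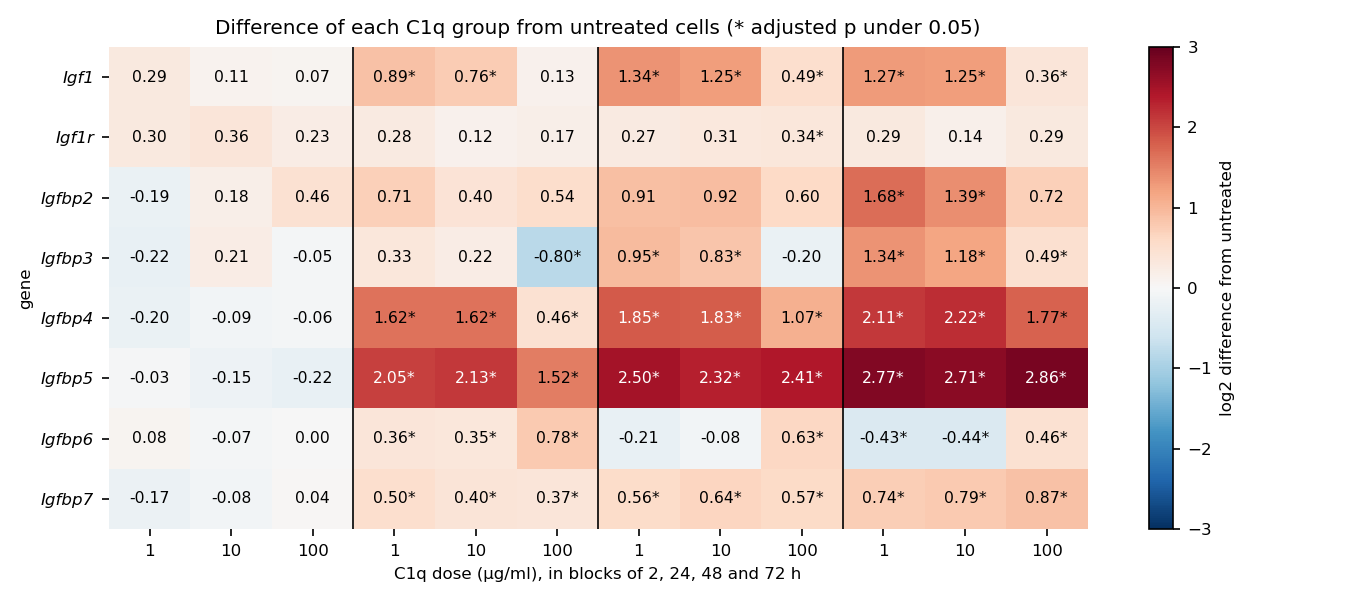
Log2 difference of each of the 8 genes (rows) from untreated cells at each dose, in blocks of time (columns), with a star where the adjusted p was under 0.05. Igfbp5 had the darkest cells, up to 2.86 ± 0.10 at 100 µg/ml and 72 h, and Igfbp6 was the one gene called lower at 1 and 10 µg/ml and higher at 100 µg/ml at 72 h.

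Doses were then compared at equal time, which asks what depends on the amount of C1q given, with any difference in its buffer included. Between 100 and 1 µg/ml, 0 of the 8 genes were called at 2 h (1 at an unadjusted p under 0.05, and 0 by DESeq2), where 3.22% of all genes were. At 24 h, 5 of the 8 were called, Igfbp6 higher at 100 µg/ml and Igf1, Igfbp3, Igfbp4 and Igfbp5 lower (3.77% of all genes higher, 7.21% lower). At 48 h, 4 were called, Igfbp6 higher and Igf1, Igfbp3 and Igfbp4 lower (3.82% of all genes higher, 6.44% lower). At 72 h, 5 were called, Igfbp6 higher and Igf1, Igfbp2, Igfbp3 and Igfbp4 lower (4.99% of all genes higher, 6.51% lower). The median log2 difference of the 8 between 100 and 1 µg/ml was -0.35, -0.20 and -0.17 at 24, 48 and 72 h, and that of all tested genes was 0.03, -0.0099 and 0.003.

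Between 10 and 1 µg/ml, edgeR called 0 of the 8 genes at each of the 4 times, where 0.839%, 0.0485%, 0.208% and 0% of all genes were called at 2, 24, 48 and 72 h. DESeq2 called 0 of the 8 at each time, and at an unadjusted p under 0.05 Igfbp3 passed at 2 h and none of the 8 passed later. A p above the threshold does not show that the 2 doses act alike, and the 95% intervals of the log2 difference give the limits. At 24 h the interval was -0.32 to 0.07 for Igf1, -0.47 to 0.24 for Igfbp3, -0.18 to 0.18 for Igfbp4 and -0.19 to 0.17 for Igfbp6. At 72 h it was -0.21 to 0.17 for Igf1, -0.46 to 0.14 for Igfbp3, -0.07 to 0.29 for Igfbp4 and -0.20 to 0.17 for Igfbp6. Igfbp2, with few counts, had a much wider interval of -0.83 to 0.25 at 72 h. After 2 h the lowest unadjusted p of the 8 by edgeR was that of Igfbp5 at 48 h (0.0547), with an interval of -0.36 to 0.0037.

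**Figure D2:**
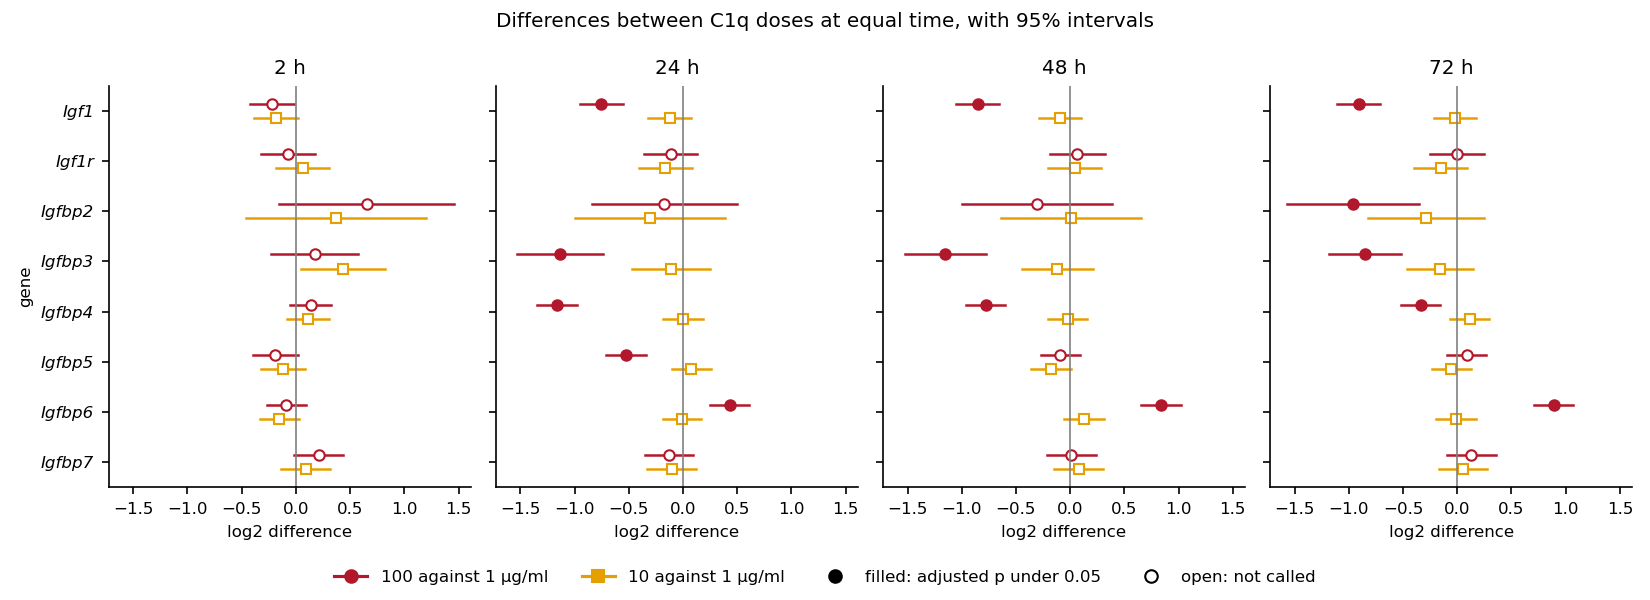
Log2 difference of each gene between 100 and 1 µg/ml (circles) and between 10 and 1 µg/ml (squares) at each time, with 95% intervals; filled symbols were called. At 24 to 72 h the circles of Igf1, Igfbp3 and Igfbp4 lie left of 0 and those of Igfbp6 right of it, and the intervals of the squares cover 0 at those times for all 8 genes.

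Promoter sequences are shown for the 4 genes whose level at 100 µg/ml differed from 1 µg/ml at 24, 48 and 72 h, 3 of them lower (Igf1, Igfbp3, Igfbp4) and Igfbp6 higher. Each is the RefSeq promoter of build GRCm38.p6, 250 bases before and 50 after the annotated start, 5′ to 3′ on the strand of the gene. Capitals mark matches on either strand to 6 motifs. The letters searched were TATAAA for the TATA box, CCAAT for the box of that name and GGGCGG for the GC box. Also searched were TGANTCA, a loose form of the AP-1 site with any base at N, TGTTTAC for a FOXO site and CACGTG for the E-box. No matches overlap in these 4 windows. The start that RefSeq lists for Igf1, Igfbp3 and Igfbp4 lies inside the outermost span of the gene given further on, so other starts are annotated.
Igf1 (chr10:87860861-87861160, + strand): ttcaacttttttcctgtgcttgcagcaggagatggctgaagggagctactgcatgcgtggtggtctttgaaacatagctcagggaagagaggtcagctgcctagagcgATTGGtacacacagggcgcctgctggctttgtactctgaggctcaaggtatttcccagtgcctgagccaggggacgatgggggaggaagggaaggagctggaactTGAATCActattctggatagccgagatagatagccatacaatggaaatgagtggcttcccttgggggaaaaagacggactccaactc
Igfbp3 (chr11:7213874-7214173, - strand): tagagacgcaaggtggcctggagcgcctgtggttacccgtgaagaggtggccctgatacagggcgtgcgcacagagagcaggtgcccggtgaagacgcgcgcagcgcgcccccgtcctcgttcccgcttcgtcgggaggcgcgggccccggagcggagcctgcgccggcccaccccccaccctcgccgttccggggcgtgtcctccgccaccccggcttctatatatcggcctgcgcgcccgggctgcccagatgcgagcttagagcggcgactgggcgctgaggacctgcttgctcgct
Igfbp4 (chr11:99040994-99041293, + strand): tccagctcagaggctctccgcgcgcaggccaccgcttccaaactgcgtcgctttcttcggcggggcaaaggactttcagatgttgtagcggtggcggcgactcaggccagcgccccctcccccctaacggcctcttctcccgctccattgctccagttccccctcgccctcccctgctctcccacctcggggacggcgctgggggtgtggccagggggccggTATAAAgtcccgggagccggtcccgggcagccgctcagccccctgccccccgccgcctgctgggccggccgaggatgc
Igfbp6 (chr15:102143936-102144235, + strand): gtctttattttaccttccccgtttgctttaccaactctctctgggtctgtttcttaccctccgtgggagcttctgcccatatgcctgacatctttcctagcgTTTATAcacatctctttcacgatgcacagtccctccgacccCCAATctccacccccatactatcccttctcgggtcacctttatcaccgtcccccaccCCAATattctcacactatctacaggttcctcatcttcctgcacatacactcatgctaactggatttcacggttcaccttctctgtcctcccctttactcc
Counted from the start, Igf1 had a CCAAT box in reverse at -142 and a match to the loose TGANTCA pattern, with A at N, at -37. Igfbp4 had a TATA box at -28. Igfbp6 had a TATAAA match in reverse at -148 and CCAAT boxes at -107 and -50. None of the 6 motifs was in the Igfbp3 window. Of 32851 RefSeq promoters of this length, 13.6% held TATAAA, 37.4% CCAAT, 35.7% GGGCGG, 7.81% TGANTCA, 3.65% TGTTTAC and 7.15% CACGTG. The 3 genes that were lower at 100 µg/ml shared none of the 6 motifs, and the matches are letters only, with no measure of binding.

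Igf1 (chr10:87858265-87937047, + strand), the ligand, was over 2 times its untreated level at the lower doses by 48 h and rose less at 100 µg/ml. Its level was 201, 217 and 171 CPM in the untreated libraries. At 24 h it was 409, 371 and 307 CPM at 1 µg/ml, 312, 356 and 330.0 CPM at 10 µg/ml and 222, 217 and 206 CPM at 100 µg/ml. All 3 libraries of 100 µg/ml lay below the 6 of the lower doses. The log2 difference between 100 and 1 µg/ml was -0.75 ± 0.099 (adjusted p = 3.56e-07).

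At 48 h Igf1 reached 507, 537 and 449 CPM at 1 µg/ml and 487, 432 and 479 CPM at 10 µg/ml, and stood at 284, 256 and 289 CPM at 100 µg/ml. At 72 h the values were 524, 486 and 409.8 CPM at 1 µg/ml, 489, 458 and 453 CPM at 10 µg/ml and 272, 239 and 245 CPM at 100 µg/ml. The high dose again lay below the other 6 libraries at both times, at 0.555 and 0.533 times the mean of 1 µg/ml. The log2 differences between 100 and 1 µg/ml were -0.85 ± 0.098 (adjusted p = 2.04e-08) at 48 h and -0.91 ± 0.099 (adjusted p = 3.28e-09) at 72 h.

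Against untreated cells, Igf1 rose by 1.34 ± 0.10, 1.25 ± 0.10 and 0.49 ± 0.10 on the log2 scale at 1, 10 and 100 µg/ml after 48 h, with an adjusted p of at most 0.000109. At 72 h the rise at 100 µg/ml was 0.36 ± 0.10 (adjusted p = 0.00332), and it was no longer called without the third untreated library (adjusted p = 0.081). At 24 h the difference at 100 µg/ml was 0.13 ± 0.10 (adjusted p = 0.315), and the untreated and 100 µg/ml libraries overlapped. At 2 h the 9 C1q libraries held 199 to 255 CPM and overlapped with the untreated ones, although those of 1 µg/ml lay above them at 228, 237 and 255 CPM, a log2 difference of 0.29 ± 0.10 (adjusted p = 0.0778) that was not called.

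Igf1r (chr7:67952257-68233668, + strand), the receptor, stayed within a narrow range, from 45.3 to 73.5 CPM over all 39 libraries. It held 47.3, 45.3 and 60.5 CPM in untreated cells and, at 48 h, 73.1, 55.8 and 65.8 CPM at 100 µg/ml. The groups overlapped, and the difference of 0.34 ± 0.13 (adjusted p = 0.0338) was called. That call was lost without the first or the third library of 100 µg/ml or the first or the second untreated library (adjusted p = 0.0836 to 0.23). The third untreated library held the highest of the untreated values, and without it Igf1r was also called higher at 10 µg/ml at 2 and 48 h, at 1 µg/ml at 24, 48 and 72 h and at 100 µg/ml at 72 h (adjusted p = 0.0204 to 0.0443). At 72 h the same held at 1 µg/ml without the first of its libraries (adjusted p = 0.0251) and at 100 µg/ml without the third of its libraries (adjusted p = 0.0246). In the comparisons of doses at equal time Igf1r was not called, and its 95% interval between 100 and 1 µg/ml was -0.36 to 0.13 at 24 h and -0.25 to 0.25 at 72 h.

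Igfbp3 (chr11:7206086-7215498, - strand) encodes the main carrier of IGF in serum, which also acts on cells that secrete it. Untreated libraries held 27.7, 29.5 and 36.2 CPM, and the 9 C1q libraries at 2 h held 13.01 to 37.5 CPM. At 24 h it stood at 32.2, 46.9 and 38.1 CPM at 1 µg/ml, 36.9, 32.9 and 38.9 CPM at 10 µg/ml and 15.04, 17.5 and 20.6 CPM at 100 µg/ml. The high dose lay below all untreated and all lower-dose libraries. Igfbp3 fell by 0.80 on the log2 scale against untreated cells (-0.80 ± 0.21, adjusted p = 0.00213) and its log2 difference from 1 µg/ml was -1.14 ± 0.20 (adjusted p = 5.82e-05).

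At 48 h Igfbp3 was 68.1, 57.7 and 54.3 CPM at 1 µg/ml, 49.8, 57.5 and 59.4 CPM at 10 µg/ml and 32.1, 20.4 and 29.4 CPM at 100 µg/ml. After 72 h it stood at 87.4, 79.3 and 70.7 CPM, 65.9, 64.7 and 82.0 CPM and 43.6, 44.4 and 43.3 CPM at the same doses. The 100 µg/ml libraries were the lowest of the C1q libraries at each of these times. The differences between 100 and 1 µg/ml were -1.15 ± 0.18 (adjusted p = 1.73e-05) at 48 h and -0.85 ± 0.16 (adjusted p = 0.000202) at 72 h. Against untreated cells the log2 differences at 72 h were 1.34 ± 0.17, 1.18 ± 0.17 and 0.49 ± 0.19 at 1, 10 and 100 µg/ml. The last was called (adjusted p = 0.0287), but not when any of its 3 libraries, or the first or the second untreated library, was left out (adjusted p = 0.0551 to 0.158).

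Igfbp4 (chr11:99040005-99052655, + strand) encodes a binding protein known for holding IGF away from its receptor until pappalysin cleaves it. It held 267, 261 and 235 CPM in untreated cells and 179 to 263 CPM in the 9 C1q libraries at 2 h. At 24 h it was 693, 817 and 839.8 CPM at 1 µg/ml, 799.6, 743 and 807 CPM at 10 µg/ml and 344, 376 and 331 CPM at 100 µg/ml. All C1q libraries at 24 h lay above the untreated ones, and those at 100 µg/ml lay far below the other 6. The log2 difference from untreated cells was 1.62 ± 0.094, 1.62 ± 0.094 and 0.46 ± 0.094 at 1, 10 and 100 µg/ml, and between 100 and 1 µg/ml it was -1.16 ± 0.092 (adjusted p = 4.47e-13).

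At 48 h Igfbp4 reached 958, 823 and 966 CPM at 1 µg/ml, 838, 944 and 924 CPM at 10 µg/ml and 527, 551 and 524 CPM at 100 µg/ml. By 72 h it stood at 1149, 1019.5 and 1129 CPM, 1189.7, 1212 and 1165 CPM and 862, 848 and 899 CPM at these doses. The gap narrowed, with the mean at 100 µg/ml at 0.447, 0.583 and 0.791 times that at 1 µg/ml at 24, 48 and 72 h. The differences were -0.78 ± 0.091 (adjusted p = 2.42e-08) at 48 h and -0.34 ± 0.089 (adjusted p = 0.00824) at 72 h. The last was not called without the first library of 1 µg/ml (adjusted p = 0.0503), nor with library totals in place of TMM scaling (-0.24, adjusted p = 0.0816).

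Igfbp6 (chr15:102144186-102149512, + strand), which encodes the binding protein with a preference for IGF2 over IGF1, ran the other way. Its untreated level was 398, 364 and 375 CPM, and the 9 C1q libraries at 2 h held 335 to 450.4 CPM. At 24 h it was 509, 529 and 416 CPM at 1 µg/ml, 513, 454 and 480.1 CPM at 10 µg/ml and 654, 657 and 649 CPM at 100 µg/ml. All 9 lay above the untreated libraries, and the high dose lay above the other 6. The log2 difference between 100 and 1 µg/ml was 0.43 ± 0.088 (adjusted p = 0.000622), and without the third library of 1 µg/ml it was 0.31 (adjusted p = 0.0112).

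At 48 h Igfbp6 was 348, 325 and 309 CPM at 1 µg/ml, 377, 343 and 354 CPM at 10 µg/ml and 574, 613 and 570.4 CPM at 100 µg/ml. By 72 h the level was 264, 306 and 275 CPM, 271, 289 and 279 CPM and 565, 498 and 502 CPM at these doses. Against untreated cells at 48 h the log2 difference was -0.21 ± 0.091 (adjusted p = 0.0678) at 1 µg/ml, -0.08 ± 0.091 (adjusted p = 0.512) at 10 µg/ml and 0.63 ± 0.090 (adjusted p = 1.8e-07) at 100 µg/ml. The difference at 1 µg/ml was called without the second untreated library (adjusted p = 0.0346). At 72 h the lower doses lay below the untreated libraries and the high dose above them. The log2 differences from untreated cells were -0.43 ± 0.091, -0.44 ± 0.091 and 0.46 ± 0.090 at 1, 10 and 100 µg/ml, with an adjusted p of at most 0.000182. Between 100 and 1 µg/ml the difference was 0.84 ± 0.090 (adjusted p = 2.96e-09) at 48 h and 0.89 ± 0.091 (adjusted p = 7.38e-10) at 72 h, or 1.79 and 1.85 times the mean of 1 µg/ml.

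**Figure D3:**
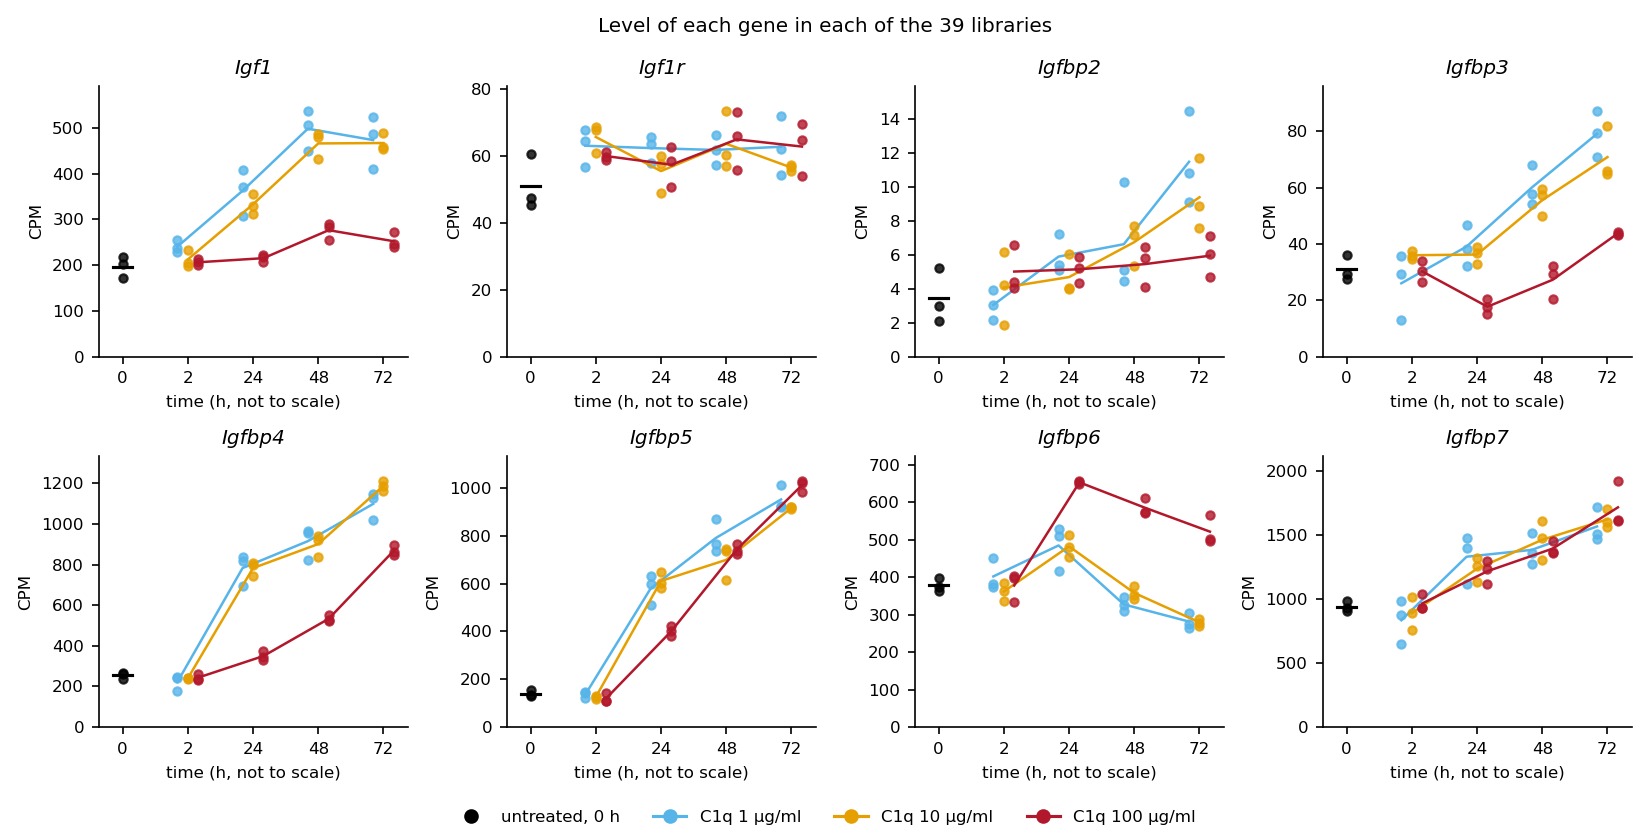
Level of each gene in CPM (vertical axes, from 0) in each library against time in hours (not to scale), with untreated libraries in black, C1q doses in colour and lines through the group means. At 24 to 72 h the 100 µg/ml points of Igf1, Igfbp3 and Igfbp4 lie below those of the lower doses, those of Igfbp6 lie above them, and those of Igfbp5 join the others from 48 h.

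Igfbp5 (chr1:72858065-72874865, - strand) encodes a binding protein that attaches to extracellular matrix, and of the 8 genes it showed the largest rises. It held 153, 134 and 132 CPM in untreated cells and 109 to 145 CPM in the 9 C1q libraries at 2 h. At 24 h it stood at 509, 631 and 597 CPM at 1 µg/ml, 583, 649 and 601 CPM at 10 µg/ml and 380.5, 402 and 422 CPM at 100 µg/ml. The high dose lay above the untreated libraries and below the other 6, with a log2 difference from 1 µg/ml of -0.53 ± 0.091 (adjusted p = 5.58e-05).

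Igfbp5 was no longer called between 100 and 1 µg/ml after 24 h. At 48 h its values were 871, 737 and 764 CPM at 1 µg/ml, 614, 737 and 746 CPM at 10 µg/ml and 722, 767 and 736 CPM at 100 µg/ml. At 72 h they were 925, 1011 and 919 CPM, 919.6, 919.8 and 910.0 CPM and 1022, 984 and 1028 CPM at these doses. The 3 doses overlapped at 48 h. At 72 h the 100 µg/ml libraries overlapped with 1 µg/ml and lay above 10 µg/ml, from which they differed by 0.14 ± 0.089 (adjusted p = 0.362), not called. The 95% interval between 100 and 1 µg/ml was -0.27 to 0.09 at 48 h and -0.09 to 0.27 at 72 h. Against untreated cells the rise at 72 h was 2.77 ± 0.10, 2.71 ± 0.099 and 2.86 ± 0.10 at 1, 10 and 100 µg/ml, with an adjusted p of at most 2.56e-26.

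Igfbp7 (chr5:77349240-77408045, - strand), whose product binds IGF weakly and is secreted into matrix, rose with time at all doses. It held 988, 929.8 and 906 CPM in untreated cells. At 72 h it was 1724, 1514 and 1470.2 CPM at 1 µg/ml, 1606, 1564 and 1706 CPM at 10 µg/ml and 1924, 1618 and 1614 CPM at 100 µg/ml. At 24 and 48 h the 9 C1q libraries ran from 1117 to 1481 CPM and from 1279 to 1611 CPM, and at 2 h from 647 to 1040.1 CPM. All 9 libraries at 72 h lay above the untreated ones, and the doses overlapped. The log2 differences from untreated cells were 0.74 ± 0.11, 0.79 ± 0.11 and 0.87 ± 0.11. At 24 h they were 0.50 ± 0.11, 0.40 ± 0.11 and 0.37 ± 0.11. The call at 10 µg/ml and 24 h was lost without the first library of that group (adjusted p = 0.0564). That at 100 µg/ml was lost without the first library of that group or the third untreated library (adjusted p = 0.0597 and 0.0513). An exon of Igfbp7 overlaps one of Polr2b on the opposite strand in GENCODE M21, and the handling of strand in the counting is not given in the sources used here, so reads of that stretch cannot be told apart.

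Igfbp2 (chr1:72824480-72852474, + strand) encodes another IGF carrier of serum and lies next to Igfbp5, with 5590 bases between them and the 2 genes pointing toward each other. It was the least counted of the 8, with 4 to 34 counts per library, so that small differences were not detectable at this depth. It held 5.21, 2.105 and 2.98 CPM in untreated cells. The C1q libraries held 1.85 to 6.57 CPM at 2 h, 3.95 to 7.20 CPM at 24 h and 4.08 to 10.3 CPM at 48 h. The values at 72 h were 14.5, 10.8 and 9.10 CPM at 1 µg/ml, 7.56, 8.89 and 11.7 CPM at 10 µg/ml and 7.10, 4.67 and 6.06 CPM at 100 µg/ml. The lower doses lay above the untreated libraries, and the 100 µg/ml libraries lay below all of the lower doses and overlapped with untreated cells.

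The log2 difference of Igfbp2 from untreated cells at 72 h was 1.68 ± 0.34 (adjusted p = 7.96e-05) at 1 µg/ml, 1.39 ± 0.34 (adjusted p = 0.00104) at 10 µg/ml and 0.72 ± 0.39 (adjusted p = 0.13) at 100 µg/ml. At 48 h the differences of 0.91 ± 0.37 (adjusted p = 0.052) at 1 µg/ml and 0.92 ± 0.37 (adjusted p = 0.0518) at 10 µg/ml were not called, but were without the first untreated library (adjusted p = 0.0236 and 0.0237). That at 1 µg/ml was also called without the second or the third library of its group (adjusted p = 0.0232 and 0.038). Between 100 and 1 µg/ml at 72 h the difference was -0.96 ± 0.30 (adjusted p = 0.0307). It was not called by DESeq2 (adjusted p = 0.0695), with library totals only (adjusted p = 0.0504), or without the first or the second library of 1 µg/ml or the second or the third of 100 µg/ml (adjusted p = 0.0527 to 0.179).

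The 100 µg/ml groups were also set against 10 µg/ml, a comparison added after the values were seen. At 2 h, 0 of the 8 genes were called (0 at an unadjusted p under 0.05 and 0 by DESeq2), where 3.53% of all genes were. At 24 h, 5 were called (3.37% of all genes higher, 6.66% lower), Igfbp6 higher at 0.44 ± 0.089 and Igf1, Igfbp3, Igfbp4 and Igfbp5 lower at -0.63 ± 0.099, -1.02 ± 0.20, -1.16 ± 0.092 and -0.61 ± 0.091. At 48 h, 4 were called (3.16% of all genes higher, 6.17% lower), with Igfbp6 at 0.71 ± 0.090 and Igf1, Igfbp3 and Igfbp4 at -0.75 ± 0.099, -1.03 ± 0.19 and -0.76 ± 0.091. At 72 h, 4 were called (4.19% of all genes higher, 6.37% lower), with Igfbp6 at 0.90 ± 0.091 and the same 3 lower at -0.89 ± 0.098, -0.69 ± 0.16 and -0.45 ± 0.089. These comparisons share the 100 µg/ml libraries with those against 1 µg/ml.

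Whether the difference between 100 and 1 µg/ml changed over the 4 times was tested with 1 F test per gene. It was called for 5 of the 8 genes, Igf1, Igfbp3, Igfbp4, Igfbp5 and Igfbp6, where 6.78% of all genes were called. The adjusted p was 5.54e-09 for Igfbp4, 7.06e-07 for Igfbp6, 0.00218 for Igfbp3, 0.00233 for Igf1 and 0.00682 for Igfbp5. A contrast of 72 h with 24 h, added after the values were seen, gave the change of that log2 difference between those times. Igfbp4 and Igfbp5 were called at 0.82 ± 0.13 (adjusted p = 6.06e-05) and 0.62 ± 0.13 (adjusted p = 0.00346), their gap at 100 µg/ml being smaller at 72 h than at 24 h. Igfbp6 was called at 0.46 ± 0.13 (adjusted p = 0.0481), its excess at 100 µg/ml being larger at 72 h, with 1.06% of all genes called at a difference above 0 and 0.430% below it. The call of Igfbp6 was lost when any of 10 of the 12 libraries concerned was left out (adjusted p = 0.0514 to 0.186), all but the third of 1 µg/ml at 24 h and the second of 1 µg/ml at 72 h. That call was also lost with RLE scaling, with no filter and in a fit of the compared libraries alone (adjusted p = 0.059, 0.0932 and 0.191). Igf1 gave -0.16 ± 0.14 (adjusted p = 0.731) and Igfbp3 0.28 ± 0.26 (adjusted p = 0.738), neither called.

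Over time, with the 3 doses averaged, 5 of the 8 genes were higher at 24 h than at 2 h, where 29.3% of all genes were called higher and 28.6% lower. They were Igfbp5 at 2.04 ± 0.057, Igfbp4 at 1.35 ± 0.054, Igfbp6 at 0.49 ± 0.052, Igfbp7 at 0.49 ± 0.065 and Igf1 at 0.43 ± 0.058. Such averages do not describe each dose where the doses moved apart. Igf1 had means of 240 CPM at 2 h and 362 CPM at 24 h at 1 µg/ml, and 206 and 215 CPM at 100 µg/ml. Igfbp3, not called on average, had 26.0 and 39.1 CPM at 1 µg/ml and 30.25 and 17.7 CPM at 100 µg/ml. At 48 h against 24 h, 5 were called (12.8% of all genes higher, 12.1% lower), of which Igf1, Igfbp3, Igfbp4 and Igfbp5 were higher at 0.43 ± 0.056, 0.61 ± 0.11, 0.35 ± 0.052 and 0.51 ± 0.052. Igfbp6 was lower at -0.38 ± 0.052. At 72 h against 48 h, 5 were called (8.38% of all genes higher, 8.27% lower), with Igfbp3, Igfbp4, Igfbp5 and Igfbp7 higher at 0.48 ± 0.098, 0.46 ± 0.052, 0.37 ± 0.052 and 0.21 ± 0.064. Igfbp6 was again lower, at -0.25 ± 0.052. Igfbp7 missed the threshold at 48 h against 24 h (0.16 ± 0.064, adjusted p = 0.0542) and passed it without the first library of 10 µg/ml at 48 h, the first or the second of 1 µg/ml at 24 h, or the third of 1 µg/ml at 48 h (adjusted p = 0.0273 to 0.0458). Igfbp2 likewise missed it at 72 h against 48 h (0.45 ± 0.18, adjusted p = 0.0878) and passed it without the first library of 1 µg/ml at 48 h (adjusted p = 0.0178). The 72 h call of Igfbp7 was lost without the first library of 10 µg/ml at 48 h, of 1 µg/ml at 72 h or of 100 µg/ml at 72 h (adjusted p = 0.0505 to 0.0526).

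The 13 group means of Igf1 ran from 196 CPM in untreated cells to 498 CPM at 1 µg/ml and 48 h, and 9 of the 12 neighbouring pairs in that order overlapped in their libraries. The 3 breaks lay between 100 µg/ml at 24 h and 1 µg/ml at 2 h, between 100 µg/ml at 48 h and 10 µg/ml at 24 h, and between 1 µg/ml at 24 h and 10 µg/ml at 48 h. The 48 and 72 h groups at 1 and 10 µg/ml formed the top of the order, with overlapping libraries. Igfbp4 gave the most breaks, 6, from 221 CPM at 1 µg/ml and 2 h to 1189 CPM at 10 µg/ml and 72 h. For Igf1r and Igfbp2 all 12 neighbouring pairs overlapped, so that no neighbours in the order differed beyond their spread. Igfbp3 ran from 17.7 CPM at 100 µg/ml and 24 h to 79.1 CPM at 1 µg/ml and 72 h. Igfbp6 ran from 279 CPM at 10 µg/ml and 72 h to 653 CPM at 100 µg/ml and 24 h. Igfbp5 ran from 120.2 CPM at 100 µg/ml and 2 h to 1011 CPM at 100 µg/ml and 72 h, and Igfbp7 from 836 CPM at 1 µg/ml and 2 h to 1719 CPM at 100 µg/ml and 72 h.

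Likeness of pattern is given as Pearson's r of mean log2 CPM over the 13 groups, which share time and dose, and as a description. Among the 8 genes, Igfbp5 and Igfbp7 were most alike (r = 0.966), followed by Igfbp4 and Igfbp5 (r = 0.948), and Igfbp3 and Igfbp6 were the most opposed (r = -0.765). Of 10265 named genes searched, the 3 most like Igf1 were Ctla2a (r = 0.957), C7 (r = 0.956) and Frmd5 (r = 0.953). Ctla2a encodes a cysteine protease inhibitor and C7 a terminal complement component. Those most like Igfbp4 were Tmem176b (r = 0.994), Olfml3 (r = 0.988) and Serpina3n (r = 0.987), and those most like Igfbp5 were Serping1 (r = 0.993), Clec3b (r = 0.993) and Selenop (r = 0.991). Serping1 encodes the inhibitor of the C1 proteases, and Selenop a secreted selenium carrier. For Igfbp6 they were Iftap (r = 0.978), Ccdc90b (r = 0.927) and Sgsm3 (r = 0.920), and for Igfbp7 they were Cfi (r = 0.987), Itm2b (r = 0.985) and Ormdl3 (r = 0.983), of which Cfi encodes complement factor I. For Igfbp3 they were Smpd3 (r = 0.928), Gnptg (r = 0.927) and Bmper (r = 0.926), where Bmper encodes a secreted BMP regulator. Igf1r and Igfbp2, whose neighbouring groups all overlapped, were nearest to Rc3h1 (r = 0.876), Map3k2 (r = 0.868) and Ccdc137 (r = 0.867) and to Saraf (r = 0.927), Nrros (r = 0.927) and Aldoc (r = 0.921).

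A further list of 25 genes of the IGF and insulin pathway, chosen with earlier results of these data known, had 24 names in the table and 21 genes with enough counts to test. Insrr, Igfals and Igfbpl1 were in the table but not tested, and the table held no row named Igfbp1. At 72 h and 1 µg/ml, 9 of the 21 were higher than in untreated cells and 4 lower, where 18.1% of all genes were higher and 20.1% lower. At 10 µg/ml 8 were higher and 4 lower (19.3% and 20.6% of all genes), and at 100 µg/ml 8 were higher and 3 lower (22.5% and 23.3%). The lower counts at 72 h were thus close to or under the share over all genes. At 48 h, 10 of the 21 were called at 1 µg/ml (6 higher, 4 lower) and 11 at 10 µg/ml (8 higher, 3 lower), where 33.1% and 34.5% of all genes were called in either direction. At 100 µg/ml, 7 were higher and 3 lower (19.1% and 20.9% of all genes). The counts at 24 h were near the shares over all genes, with 3 higher and 2 lower at 1 µg/ml (10.9% and 14.3% of all genes), and with 4 higher and 3 lower at 10 µg/ml (12.5% and 15.3%) as well as at 100 µg/ml (16.8% and 19.9%). At 2 h, 1 µg/ml gave 1 higher with 3 lower (6.15% of all genes in either direction), 10 µg/ml gave 3 of each (12.7%), and 100 µg/ml gave 0 calls by edgeR (4 at an unadjusted p under 0.05, and 0 by DESeq2), where 5.16% of all genes were called. Between 100 and 1 µg/ml, 0 were higher and 3 lower at 24 h (3.77% and 7.21% of all genes), 1 and 4 at 48 h (3.82% and 6.44%) and 1 and 4 at 72 h (4.99% and 6.51%). At 2 h edgeR called 0 of them (5 at an unadjusted p under 0.05, and 0 by DESeq2), where 3.22% of all genes were called. Between 10 and 1 µg/ml edgeR and DESeq2 called 0 of the 21 at each time. By edgeR 0.839%, 0.0485%, 0.208% and 0% of all genes were called at 2, 24, 48 and 72 h, so few calls were to be had in any list. Of the 21, 1, 3, 2 and 2 passed an unadjusted p under 0.05 at those times.

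Pappa, which encodes the pappalysin that cleaves IGFBP4 and so frees IGF, was lower at 100 than at 1 µg/ml at 24, 48 and 72 h. Its level was 54.5 ± 9.17 CPM in untreated cells (SD, n = 3 here and below). After 72 h the mean was 139.7 ± 11.8 CPM at 1 µg/ml, 151 ± 6.85 CPM at 10 µg/ml and 78.3 ± 1.63 CPM at 100 µg/ml. The log2 differences from untreated cells were 1.36 ± 0.12, 1.47 ± 0.12 and 0.52 ± 0.13, all called. Between 100 and 1 µg/ml the difference was -0.59 ± 0.12 (adjusted p = 0.000817) at 24 h, -0.84 ± 0.12 (adjusted p = 2.17e-06) at 48 h and -0.84 ± 0.12 (adjusted p = 1.23e-06) at 72 h. Stc2, which encodes a stanniocalcin that inhibits pappalysin, was lower than in untreated cells at 24 h at all 3 doses, at -0.69 ± 0.20, -0.82 ± 0.21 and -1.21 ± 0.22. Htra1, which encodes a secreted serine protease that can cleave IGFBP5, was lower at 72 h, at -1.14 ± 0.16, -1.35 ± 0.16 and -0.90 ± 0.16.

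On the side of the receptors, Igf2r, which encodes the receptor that clears IGF2, was 136 ± 3.73 CPM at 100 µg/ml and 99.6 ± 3.55 CPM at 1 µg/ml at 72 h, a difference of 0.45 ± 0.11 (adjusted p = 0.0037). Grb10, which encodes an adaptor that dampens IGF1R and insulin receptor signalling, was 240.4 ± 7.79 CPM at 100 µg/ml and 323 ± 11.02 CPM at 1 µg/ml at 24 h. The difference was -0.43 ± 0.076 (adjusted p = 8.8e-05), and at 48 h it was -0.40 ± 0.078 (adjusted p = 0.000343). At 72 h Grb10 was again called lower at 100 µg/ml, at 213 ± 6.71 CPM against 291 ± 11.8 CPM at 1 µg/ml. Foxo3, a transcription factor that the IGF and insulin pathway holds out of the nucleus, was 69.9 ± 8.72 CPM in untreated cells. At 2 h and 10 µg/ml it was 43.6 ± 8.24 CPM, a log2 difference of -0.68 ± 0.14 (adjusted p = 0.000478). It was also called lower at 1 µg/ml and 2 h (48.1 ± 8.28 CPM, adjusted p = 0.00969), and not at 100 µg/ml. The call at 1 µg/ml was lost when either of 2 libraries was left out (adjusted p = 0.0914 to 0.108). At 72 h and 100 µg/ml it was 141 ± 14.1 CPM, a log2 difference from untreated cells of 1.01 ± 0.12 (adjusted p = 3.06e-09). Foxo3 was also called higher at 72 h at 1 and 10 µg/ml, at 114 ± 11.5 and 125 ± 6.33 CPM. Between 100 and 1 µg/ml it was called higher at 48 h and not called at 72 h.

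**Figure D4:**
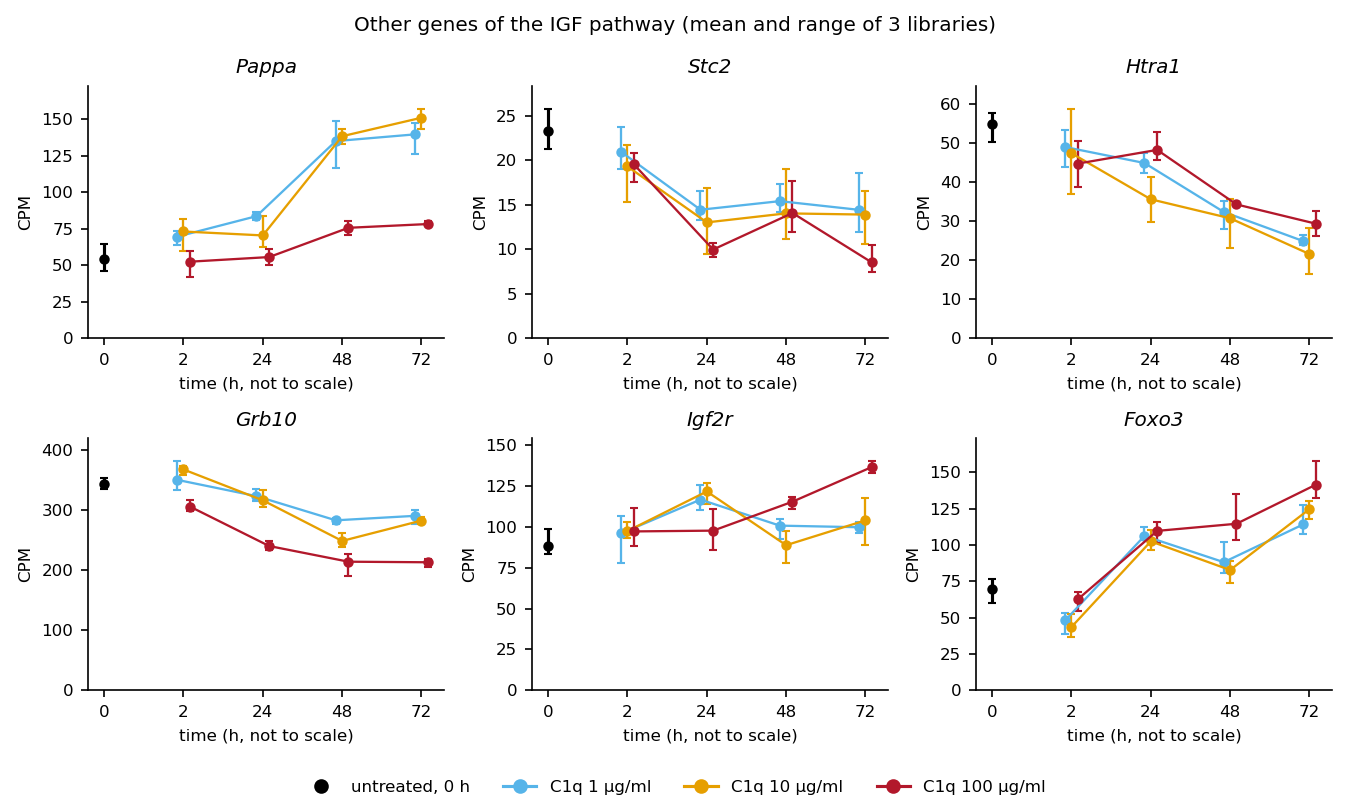
Mean level in CPM (vertical axes, from 0) of 6 other genes of the IGF pathway against time in hours (not to scale), by dose, with bars from the lowest to the highest of the 3 libraries. Pappa at 48 and 72 h parts the 100 µg/ml group from the lower doses, with 78.3 ± 1.63 CPM at 100 µg/ml and 139.7 ± 11.8 CPM at 1 µg/ml at 72 h.

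Markers of other cells moved with time and, in part, with dose. In such bulk RNA, fewer cells of a type and less RNA per cell cannot be told apart. The summed level of 16 macrophage markers was 292 to 317 CPM in untreated libraries and, at 72 h, 1287 to 1385 CPM at 1 µg/ml, 1449.7 to 1673 CPM at 10 µg/ml and 983 to 1208 CPM at 100 µg/ml. Of these 16, 14 were called higher at each dose at 72 h, where 18.1%, 19.3% and 22.5% of all genes were called higher at 1, 10 and 100 µg/ml. Cd163 had at most 3 counts in any library, and Adgre1, Mrc1 and Aif1 were at 0 in at least 1 library. Lyz2 alone held a mean of 200.6 CPM in untreated cells. At 24 h, when Igf1 differed between doses, the sum was 415 to 456 CPM at 1 µg/ml, 336 to 403 CPM at 10 µg/ml and 425 to 445 CPM at 100 µg/ml. The libraries of 100 and 1 µg/ml overlapped, and those of 10 µg/ml lay below both. Of the 16 markers, Mertk was called higher and C1qb lower at 100 than at 1 µg/ml at 24 h (3.77% of all genes higher, 7.21% lower). At 48 h Mertk was higher and 4 were lower, C1qa, C1qb, Mrc1 and Tyrobp (3.82% of all genes higher, 6.44% lower). At 72 h 0 were higher and 6 lower, C1qa, C1qb, C1qc, Fcer1g, Mrc1 and Ptprc (4.99% of all genes higher, 6.51% lower). Macrophages are a known source of IGF1, and their part in its rise with time and its difference between doses was not tested.

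The sum of 10 fibroblast markers did not overlap between the high and the low dose at 24 h. It was 7069.5 to 7763 CPM at 100 µg/ml and 8719 to 10283 CPM at 1 µg/ml. Of the 10, 6 were called lower alongside Igf1, Igfbp3, Igfbp4 and Igfbp5, where 7.21% of all genes were called lower. At 72 h the order was turned round, at 9885 to 10782 CPM at 100 µg/ml and 8951 to 9505 CPM at 1 µg/ml, while Igf1, Igfbp3 and Igfbp4 were still lower at 100 µg/ml. Of the 10 markers, Col1a1 and Col1a2 were called higher there, Lum was called lower, and the other 7 were not called (4.99% of all genes higher, 6.51% lower). The part of fibroblast markers in these results was not tested. The 6 mesothelial markers summed to 336 to 383 CPM at 100 µg/ml, 516 to 583 CPM at 1 µg/ml and 258 to 273 CPM in untreated cells, and the part of these cells in the lower levels at 100 µg/ml was not tested. Of 11 epithelial markers, 9 were lower than in untreated cells at each dose at 72 h, where 20.1%, 20.6% and 23.3% of all genes were called lower. Their sums were 109 to 129 CPM at 100 µg/ml and 118 to 137 CPM at 1 µg/ml, against 531 to 630.1 CPM in untreated cells, over all 11 markers. Endothelial (10 genes) and mural markers (9 genes) were at 89.7 to 99.3 and 150.4 to 163 CPM at 100 µg/ml and 116 to 142 and 181 to 188 CPM at 1 µg/ml at 72 h.

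**Figure D5:**
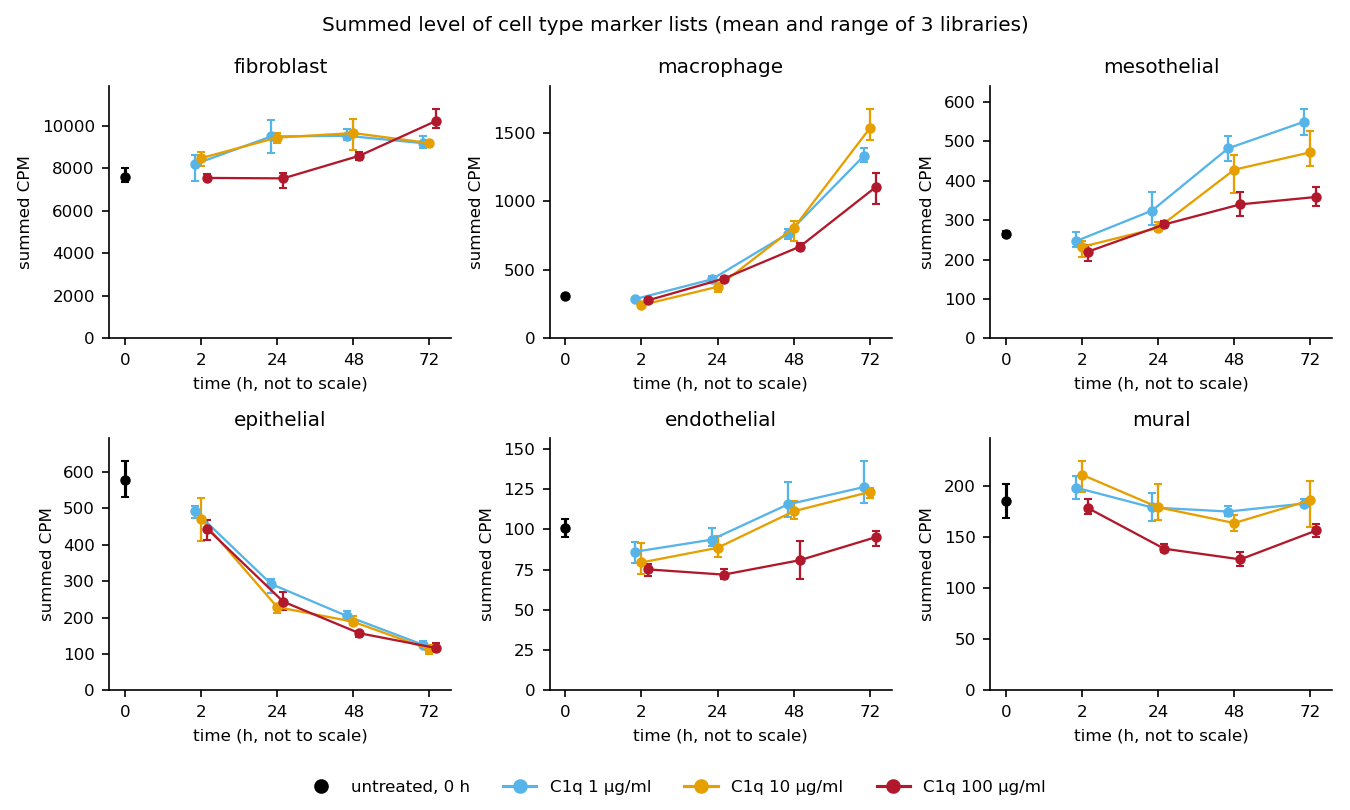
Summed level in CPM (vertical axes, from 0) of 6 marker lists against time in hours (not to scale), by dose, with bars from the lowest to the highest of the 3 libraries. The macrophage sum is higher at 72 h than in untreated cells at all doses and the epithelial sum lower, and at 24 h the macrophage sums of 100 and 1 µg/ml overlap, above that of 10 µg/ml, while the fibroblast sum is lower at 100 µg/ml than at both lower doses.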

How the data were processed

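Sequencing read the 5′ end of polyadenylated RNA, per the labels' protocols. The submitters' processing notes name cutadapt 2.1.0, Bowtie2 2.4.2 and the build GRCm38. The authors deposited raw counts per gene in 1 table with 39 columns. How reads were counted (tool, annotation, strand, multiple matches, molecular identifiers) is not given in the sources used here. Counts of 5′ ends depend on which start sites the counting assigned to a gene. Columns were matched to samples by title; 9 columns spelled it differently and were matched by its serial number. Of the names, 28849 matched RefSeq symbols of GRCm38.p6, which gave coordinates and promoters.

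Counts were tested with edgeR 4.0.16 (R 4.3.3) in 1 fit with a mean per group, after the default filter by group and with TMM scaling. Benjamini-Hochberg adjustment ran over all tested genes within a comparison, with a threshold of 0.05, and not across comparisons. Every one of the 8 genes is given. Of the further IGF list, genes were picked from up to 4 called genes with the largest difference per comparison, and their values in other comparisons are given too. Not all such genes are described. Between 100 and 1 µg/ml, Grb14 at 24 h (-0.77 ± 0.18) and Pappa2 at 48 and 72 h (-1.34 ± 0.45 and -1.04 ± 0.35) differed more than those described. Standard errors come from the quasi-likelihood F. The test was tried on simulated counts.

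Replicate numbers follow the sample order and pair nothing. A chi-square of each replicate pair, over genes with a pair sum of 20 or more, gave 1.31 to 8.48 per degree of freedom, so no library looked like a duplicate. The genes, lists and comparisons were chosen with earlier results of these data known. Alternatives were DESeq2 1.42.0, RLE scaling, library totals, no filter, the compared libraries alone, counts without LOC118568312, a locus that held 6.10% to 14.1% of the counts of a library, and each library left out. Likeness was searched among named genes with a mean log2 CPM of at least 3 (prior count 2). Figures were drawn with matplotlib 3.10.9.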

Additional observations from a re-analysis of the deposited data

Results flagged for a closer look

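For 5 genes the difference between 100 and 1 µg/ml differed between the 4 times, by an F test of that difference itself in edgeR's quasi-likelihood fit, with Benjamini-Hochberg adjustment. The adjusted p was 5.54e-09 for Igfbp4, whose log2 difference was 0.14 ± 0.095 at 2 h, -1.16 ± 0.092 at 24 h and -0.34 ± 0.089 at 72 h. Igfbp6 gave 7.06e-07, with -0.09 ± 0.090 at 2 h and 0.89 ± 0.091 at 72 h. Igfbp3 gave 0.00218, with 0.17 ± 0.20 at 2 h and -1.15 ± 0.18 at 48 h. Igf1 gave 0.00233, with -0.22 ± 0.10 at 2 h and -0.91 ± 0.099 at 72 h. Igfbp5 gave 0.00682, with -0.19 ± 0.10 at 2 h, -0.53 ± 0.091 at 24 h and 0.09 ± 0.089 at 72 h. All 5 calls held with each of the 24 libraries concerned left out in turn.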

How the results depend on the processing

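No paired analysis was possible because the labels give no replicate numbers shared between groups. Under the 6 alternatives other than leaving out libraries, the 8 genes had 1380 values with an adjusted p, and values without one were left out. Of these, 1357 kept their side of the threshold, 8 lost and 15 gained a call, and 0 called values changed direction. With a library left out, 1823 of 1872 kept their side, 31 lost and 18 gained. Values not called in either fit were counted as kept even where their sign changed. The number of the 8 called at 10 µg/ml and 2 h against untreated cells was 0 and became 1 (Igf1r) with RLE scaling, without LOC118568312, and over a range of 0 to 1 with libraries left out. At 1 µg/ml and 2 h it became 1 (Igf1) in a fit of the compared libraries alone. Between 100 and 1 µg/ml at 72 h it was 5, became 3 (Igf1, Igfbp3 and Igfbp6) with library totals, and ran from 3 to 5 with libraries left out. Igf1 at 100 µg/ml and 24 h was called higher than untreated with library totals (0.25, adjusted p = 0.0449); that scaling moved the median of all genes by 0.11 there and by 0.11 to 0.13 between 100 and 10 µg/ml at 24 to 72 h. The Igf1r call at 100 µg/ml and 48 h was lost with no filter and by DESeq2 (adjusted p = 0.137 and 0.0673). Over all genes, 10 against 1 µg/ml called 7 at 24 h (81 with no filter, 11 by DESeq2, 1 in the compared libraries alone, 168 without the third 1 µg/ml library), 30 at 48 h (78, 16, 0, and 1 to 73 with libraries left out) and 0 at 72 h (7 with no filter). At 2 h it called 121 (50 in the compared libraries alone). The same fit of 100 against 1 µg/ml called 302 of 465 at 2 h and 685 of 1582 at 24 h. For the change of that difference between 24 and 72 h it called 105, against 215 in the fit of all libraries. With 1 library left out, the count between 100 and 1 µg/ml fell to 233, 257 and 292 at 2 h (without the second of 1 µg/ml or the third or the first of 100 µg/ml), to 920 and 1041 at 24 h (without the first or the second of 1 µg/ml), to 957, 968 and 985 of 1480 at 48 h (without the third, the second or the first of 100 µg/ml) and to 1068 and 1086 of 1658 at 72 h (without the first of 1 µg/ml or the second of 100 µg/ml). The change of the dose difference over the 4 times was called for 1473 genes in place of 978 without the third 1 µg/ml library at 24 h, and counts moved by over 1.5 times in this way in 15 comparisons. The causes of these changes were not tested. Among the other IGF genes, several calls were lost under an alternative or with a library left out. Those of Pappa2 and Stc2 between 100 and 1 µg/ml at 72 h were each lost under 3 alternatives.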
